A study of Gossypium hirsutum with 12 samples.

Results

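Rab7 and ARF1 are 2 cotton genes, LOC107913905 and LOC107914201, of 520 loci that the probe annotation of the Affymetrix Cotton array assigns without ambiguity. Each is read by 1 probe set, Ghi.8061.1.S1_s_at for Rab7 and Ghi.5930.3.A1_s_at for ARF1, of 24132 probe sets on the array. The genes were chosen by their lower signal at 42 °C in an earlier examination of these same arrays, so their heat changes are described here and not tested. Leaves of upland cotton (Gossypium hirsutum) were sampled from the cultivars Sicot 53 and Sicala 45 in 4 groups of 3 arrays. In the heated groups of both cultivars the cabinet was set to 42 °C and 67% relative humidity in the light, with dark periods of 25 °C and 40% relative humidity. The unheated groups of both cultivars were kept at 32 °C by day and 25 °C at night. Their relative humidity is not given in the labels. All plants were well watered, grew in field soil, were at the first-square stage and had spent 4 d at 32 °C before treatment. The sampled tissue was the third youngest fully expanded leaf. Heated plants occupied the cabinet once the unheated ones had been taken out. Temperature, cabinet run and any difference in humidity therefore cannot be told apart in any value below. No label says whether the 3 tissue samples of a group came from separate plants, and p-values therefore measure only the spread between these samples.

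Rab7 belongs to the Rab family of small GTPases, which switch between a GTP-bound active form and a GDP-bound inactive form and mark membranes for fusion. It acts on late endosomes and on the vacuolar membrane, where it directs the delivery of cargo to the vacuole, the largest compartment of a mature leaf cell. The symbol ARF1 has a pair of meanings in plants. An ADP-ribosylation factor is a small GTPase that recruits coat proteins to Golgi membranes, whereas an auxin response factor is a DNA-binding protein that regulates auxin-responsive promoters. The gene table gives LOC107914201 the symbol ARF1 with no product name, and the sources used here do not settle which protein it encodes. In assembly Gossypium_hirsutum_v2.1 both loci lie on chromosome D10, with 240 annotated genes between them. Upland cotton is tetraploid, and the suffix _s_at marks probe sets that can match more than 1 transcript, so copies of each gene may contribute to its signal.

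Rab7 signal was lower at 42 °C in both cultivars. In Sicot 53 the 3 arrays had MAS5 signals, the linear intensity units of the array software, of 1942, 1116 and 1906 at 42 °C, against 2556, 4034 and 2490 at 32 °C. In Sicala 45 they had 1472, 1399 and 1508 at 42 °C, against 2593, 2422 and 1982 at 32 °C. All 6 heated arrays were below all 6 unheated ones, by a narrow margin between the highest heated value of 1942 and the lowest unheated value of 1982. Both genes had been required to part the temperatures in each cultivar, so this separation is a description and no evidence. The share of all probe sets that part the temperatures was not counted. Mean signals were 1655 ± 467 at 42 °C and 3026 ± 873 at 32 °C in Sicot 53, and 1459 ± 55.6 at 42 °C and 2332 ± 315 at 32 °C in Sicala 45 (SD, n = 3 each). On the scale of log2(signal + 16), the Rab7 change averaged over cultivars was -0.77 ± 0.18 (SE), a 1.70-fold lower value. It was -0.87 ± 0.25 in Sicot 53 and -0.66 ± 0.25 in Sicala 45. In whole-leaf RNA, fewer cells expressing a gene and less RNA per cell cannot be told apart.

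ARF1 was also lower in the heated leaves of both cultivars. Its signals in Sicot 53 were 2241, 2207 and 1664 at 42 °C, against 2799, 2312 and 3497 at 32 °C. In Sicala 45 they were 1342, 2109 and 1692 at 42 °C, against 2759, 3024 and 3972 at 32 °C. The temperatures again did not overlap, as the choice of the gene required within each cultivar. Here too the share of all probe sets that do so was not counted, and nothing is read from it. The gap lay between 2241 on the highest heated array and 2312 on the lowest unheated array. ARF1 averaged 2037 ± 324 at 42 °C and 2869 ± 595 at 32 °C in Sicot 53, and 1714 ± 384 at 42 °C and 3251 ± 638 at 32 °C in Sicala 45 (SD, n = 3 each). The averaged log2 change was -0.70 ± 0.17 (SE), 1.63-fold lower, with -0.48 ± 0.24 in Sicot 53 and -0.92 ± 0.24 in Sicala 45.

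**Figure D1:**
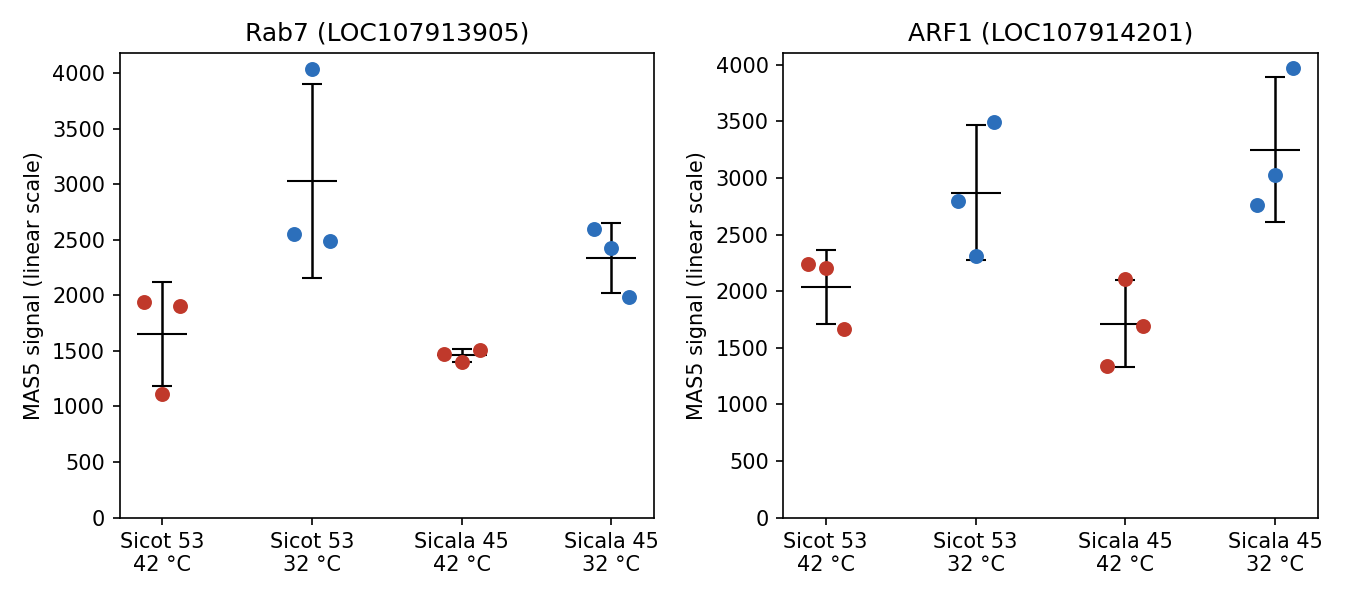
MAS5 signal (linear scale) of Rab7 and ARF1 on each of 12 arrays, by cultivar and temperature; points are arrays, bars are means with SD (n = 3). For both genes every 42 °C array lies below every 32 °C array, with gaps from 1942 to 1982 for Rab7 and from 2241 to 2312 for ARF1. The genes were chosen for such a separation within each cultivar, and the share of all probe sets so separated was not counted.

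Both genes gave bright signals, brighter than 85.8% to 96% of the other probe sets of an array for Rab7 and than 88.3% to 96.1% for ARF1. Ordered by level, Rab7 was lowest in Sicala 45 at 42 °C, then Sicot 53 at 42 °C, Sicala 45 at 32 °C and Sicot 53 at 32 °C. ARF1 had the same order at 42 °C, with Sicot 53 next and Sicala 45 highest at 32 °C. For both genes the arrays of the cultivars overlapped within each temperature, and only the step between temperatures parted neighbouring groups. As background for these changes, limma called 8.82% of the 16820 probe sets tested for averaged heat, 4.22% as higher and 4.61% as lower. It called 1.36% for heat in Sicot 53 and 1.83% in Sicala 45. Neither gene was called within a cultivar, with limma adjusted p of 0.13 for Rab7 and 0.354 for ARF1 in Sicot 53. In Sicala 45 the limma adjusted p was 0.236 for Rab7 and 0.0757 for ARF1. Averaged over cultivars, it was 0.0225 for Rab7 and 0.0244 for ARF1, both under the threshold. All these p-values describe the contrast by which the genes were chosen and do not test it. The count behind the first share, 1484, was 770 to 1679 when single arrays were left out. It moved by over 1.5 times without replicate 1 (770) or 2 (930) of Sicala 45 at 32 °C, replicate 1 of Sicot 53 at 32 °C (810), or replicate 2 (903) or 3 (833) of Sicot 53 at 42 °C, and was 5535 under scaling to added control transcripts. The averaged change was as low as that of Rab7 or lower at 6.64% of all tested probe sets, and as low as that of ARF1 or lower at 8.10%. Among the 264 tested probe sets with a gene name, these shares were 9.85% for Rab7 and 12.1% for ARF1.

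Some array controls also differed between the temperatures. The mean of the poly-A spikes, bacterial transcripts added before labelling, was 0.50 log2 units higher at 42 °C over 36 probe sets. Scaling each array to these spikes gave averaged changes of -1.26 for Rab7 and -1.20 for ARF1, while the median change of all tested probe sets became -0.50 in place of -0.05. For ubq11 the control probe set at the 3' end exceeded that at the 5' end, a gauge of lost 5' sequence, by factors of 6.39 to 41.5 at 42 °C and 4.73 to 10.7 at 32 °C, and for actin by 6.02 to 18.6 at 42 °C and 7.98 to 13.5 at 32 °C. The median ratio was 12.3 at 42 °C and 5.98 at 32 °C for ubq11, but 10.4 at 42 °C and 10.6 at 32 °C for actin. With the mean log2 ratio of ubq11 and actin as a covariate, the averaged change was -0.59 ± 0.17 (SE) for Rab7 and -0.81 ± 0.18 for ARF1. Without replicate 2 at 42 °C of each cultivar, the arrays of highest ubq11 ratio, the changes were -0.62 ± 0.17 for Rab7 and -0.82 ± 0.18 for ARF1. Leaf markers were strong on all arrays, and RCA1 (Rubisco activase) and GOX (glycolate oxidase) together had 34675 to 47478 at 42 °C, against 22532 to 48284 at 32 °C. The summed signal of 21 probe sets of fibre markers was 6021 to 14715 at 42 °C, against 5169 to 15812 at 32 °C. That of 6 seed marker probe sets was 4727 to 23886 (median 8139) at 42 °C, against 3149 to 13473 (median 5756.5) at 32 °C. Most of it came from the late embryogenesis genes Lea5-D, with means of 5370 at 42 °C and 2580 at 32 °C, and Lea14-A, with 5650 at 42 °C and 4020 at 32 °C, neither of which was called (limma adjusted p = 0.624 and 0.236). The 4 probe sets of legumin and vicilin storage proteins had mean signals of 9.30 to 131. The part of these markers in the changes of Rab7 and ARF1 was not tested.

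The cultivar comparison does not use the contrast by which the genes were chosen. It asks whether Rab7 or ARF1 differed between Sicot 53 and Sicala 45, and no difference passed the test. Averaged over temperatures, limma called 0.19% of probe sets, and neither gene was among them. Rab7 had a difference of Sicot 53 minus Sicala 45 of +0.24 ± 0.18 log2 units (SE, 95% interval -0.15 to 0.63, adjusted p = 1), and ARF1 of +0.04 ± 0.17 (-0.33 to 0.40, adjusted p = 1). At 42 °C, where 0.107% of probe sets were called, the differences were +0.14 ± 0.25 for Rab7 (-0.41 to 0.69, adjusted p = 1) and +0.26 ± 0.24 for ARF1 (-0.26 to 0.77, adjusted p = 1). At 32 °C, where also 0.107% were called, they were +0.35 ± 0.25 for Rab7 (-0.20 to 0.90, adjusted p = 1) and -0.18 ± 0.24 for ARF1 (-0.70 to 0.33, adjusted p = 1). The averaged intervals leave room for cultivar differences of up to 0.63 log2 units for Rab7 and 0.40 for ARF1. Scaling to the spikes turned the sign of both averaged differences, to -0.04 for Rab7 and -0.25 for ARF1.

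The heat change itself did not differ detectably between cultivars. Sicot 53 minus Sicala 45 gave -0.21 ± 0.36 for Rab7 (SE, 95% interval -0.99 to 0.57, limma adjusted p = 1) and +0.44 ± 0.34 for ARF1 (-0.29 to 1.17, adjusted p = 1). The estimated fall of Rab7 was the larger in Sicot 53 and that of ARF1 the larger in Sicala 45. Both intervals include 0, so no cultivar pattern is read from these directions. This comparison called 0% of probe sets, with 330 of 16820 at an unadjusted p under 0.05. The genes had been required to part the temperatures in both cultivars, which limits how far these differences could lie from 0. The Rab7 difference turned sign in 4 of 24 alternatives. Among these were the fits without replicate 2 at 32 °C of Sicot 53 (+0.01) or its replicate 2 at 42 °C (+0.05).

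Within groups, the arrays high for Rab7 were often low for ARF1. Sicot 53 at 32 °C replicate 2 had the highest Rab7 signal of all arrays, 4034, and the lowest ARF1 signal at 32 °C, 2312. In Sicot 53 at 42 °C, replicate 2 had the lowest Rab7 signal of all, 1116, while its ARF1 signal of 2207 was close to the highest of its group. Deviations from group means on the log2 scale gave r = -0.595 between the genes over 12 arrays (exact permutation within groups over 1296 arrangements, two-sided, p = 0.0841, adjusted p = 0.112 over 4 relations, Spearman's rho = -0.545, p = 0.0841, adjusted p = 0.112). Without those same arrays, the 2 of most extreme Rab7 deviation, r was -0.553. The Rab7 deviations had r = -0.648 with the log2 ubq11 ratio (exact permutation p = 0.0285, adjusted p = 0.0834, rho = -0.594, p = 0.0602, adjusted p = 0.112), and -0.581 without the 2 arrays. The ARF1 deviations had r = 0.496 with that ratio (exact permutation p = 0.177, adjusted p = 0.177, rho = 0.476, p = 0.184, adjusted p = 0.184), and 0.244 without the 2 arrays of most extreme ARF1 deviation. None of these relations passed after adjustment, and the part of RNA quality in the changes of Rab7 and ARF1 was not tested beyond the covariate fit and the fit without the 2 arrays of highest ubq11 ratio.

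**Figure D2:**
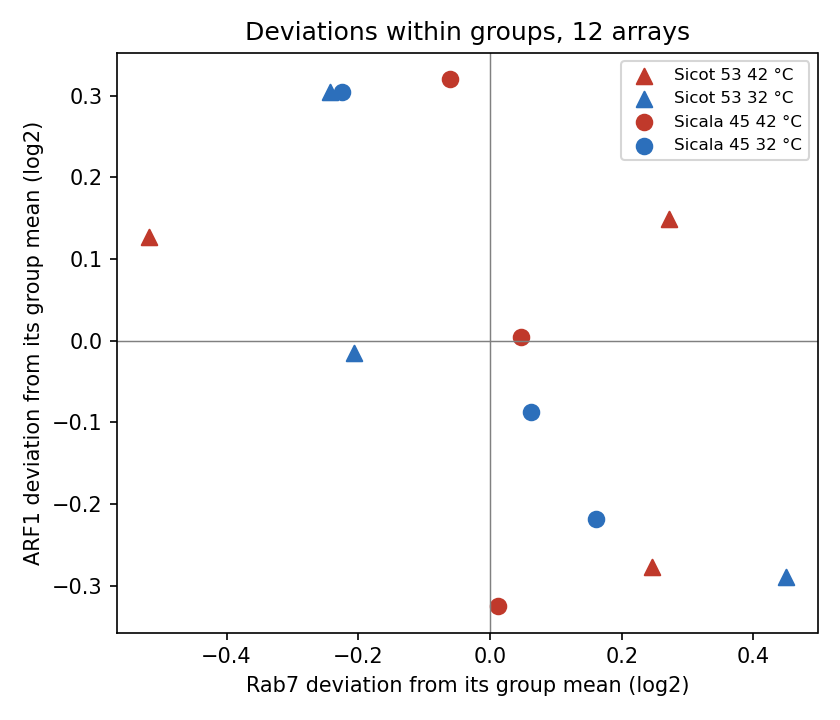
Deviation of each of 12 arrays from its group mean, in log2 units, for Rab7 (horizontal) and ARF1 (vertical); circles are Sicala 45, triangles Sicot 53, red 42 °C and blue 32 °C. The arrays spread from upper left to lower right (r = -0.595), which did not pass an exact permutation test (p = 0.0841).

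The ARF1 probe set shares its cluster number, 5930, with the probe sets Ghi.5930.1.S1_s_at, Ghi.5930.2.S1_s_at and Ghi.5930.4.S1_s_at, for which no gene is listed in the annotation. These were singled out after their values had been seen. Ghi.5930.1.S1_s_at had 15000, 24300 and 17400 at 42 °C in Sicot 53, against 20200, 5750 and 16800 at 32 °C, and 8050, 20700 and 18600 at 42 °C in Sicala 45, against 11900, 18300 and 22000 at 32 °C. The temperatures overlapped in both cultivars, and 1 array in each of Sicot 53 at 32 °C and Sicala 45 at 42 °C stood far below its group. The averaged heat changes of the 3 probe sets were +0.18 ± 0.34, +0.17 ± 0.33 and +0.19 ± 0.34 (SE, limma adjusted p = 0.792, 0.799 and 0.783), and none was called. The 95% interval of the first was -0.55 to 0.91. The 3 probe sets followed each other at r of 0.997 or more over 12 arrays and so do not count as separate measurements. The log2 ratio of ARF1 to their mean within an array had a median of -3.34 (range -3.43 to -2.58) at 42 °C, against -2.35 (-2.82 to -1.28) at 32 °C. The ranges of the ratio overlapped between temperatures. It was not tested, since its numerator is the ARF1 signal by which the gene was chosen, and nothing is read from its direction. Within groups, ARF1 deviations were compared with those of the mean of the 3 probe sets (r = 0.729, exact permutation p = 0.0417, adjusted p = 0.0834, rho = 0.72, p = 0.037, adjusted p = 0.112), a relation that did not pass after adjustment and had r = 0.631 without the 2 most extreme arrays. Rab7 is the sole probe set of its cluster number, 8061.

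**Figure D3:**
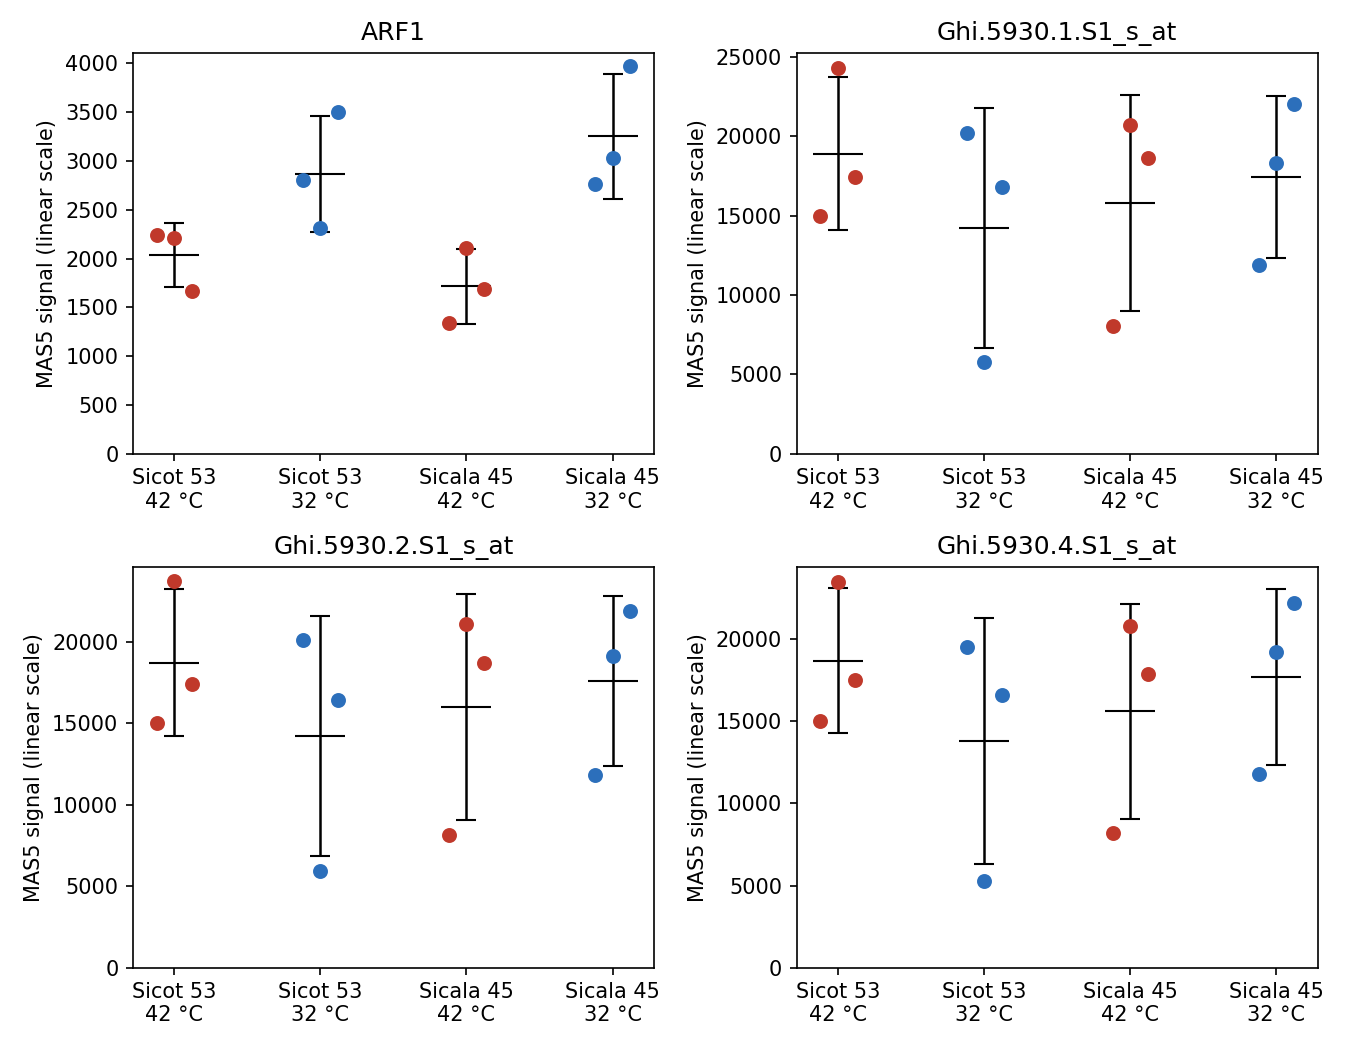
MAS5 signal (linear scale) for ARF1 and for the 3 probe sets of the same cluster number, by cultivar and temperature; points are arrays, bars are means with SD (n = 3), and each panel has its own axis from 0. ARF1 was chosen for parting the temperatures in both cultivars, so its contrast with the other probe sets is a description and not a test. The other probe sets overlap, with averaged log2 changes of +0.17 to +0.19.

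Other genes of the same families and compartments were taken from 12 lists of gene names, of which 7 matched no probe set. These empty lists were further Rab, ARF and RAN GTPases, GTPase regulators, vesicle coats, SNARE fusion proteins and tethers, so Rab7 and ARF1 could not be set beside their closest partners. The remaining lists held 18 tested probe sets, of which 1 rose and 0 fell over all probe sets tested, where 4.22% rose and 4.61% fell among all 16820. Their median change was -0.14 log2 units, against -0.05 for all. At an unadjusted p under 0.05, limma gave 1 higher and 1 lower of the 18, against 25.2% of all probe sets tested in either direction (4245 of 16820). The exception was Rac9 (LOC107960222), a RAC protein, of a plant family of small GTPases that organises actin and polar growth. Rac9 had 140, 407 and 212 at 42 °C in Sicot 53, against 108, 81.8 and 92.7 at 32 °C, and 118, 497 and 325 at 42 °C in Sicala 45, against 126, 63.6 and 105 at 32 °C. The arrays parted the temperatures in Sicot 53 and overlapped in Sicala 45, with the share of all probe sets that part them not counted. By limma, it was 2.41-fold higher at 42 °C (+1.27 ± 0.33 log2 units, SE, adjusted p = 0.0366), opposite in sign to Rab7. The 2 highest Rac9 values were on the arrays of highest ubq11 ratio, and with the 3'/5' covariate the call ended (+0.78, adjusted p = 0.083). Scaling to the spikes ended it as well (+0.82, adjusted p = 0.0759), and so did the removal of single arrays in 10 of 12 cases, where the largest adjusted p was 0.0828 and the change over all 12 removals was +1.06 to +1.54. Quantile normalization (+1.36, adjusted p = 0.0242) and median centring (+1.36, adjusted p = 0.025) kept the call.

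The other RAC genes were not called. Rac2 (LOC107939787) had a log2 change of -0.11 ± 0.19 (SE, limma adjusted p = 0.758), and the dim Rac13 (LOC107924928), at a mean signal of 38.2, +0.03 ± 0.29 (adjusted p = 0.964). Of 10 actin and tubulin probe sets, which form the tracks of vesicle transport, 0 were called by limma and 1 had an unadjusted p under 0.05 (25.2% of all tested), and their median was -0.20. The 4 of lowest p were TubA2, an alpha tubulin, at -0.32 ± 0.12 (adjusted p = 0.131), ACT1, an actin, at -0.31 ± 0.14 (adjusted p = 0.2), a probe set of the alpha tubulin TUA10 at +0.88 ± 0.41 (adjusted p = 0.209) and the beta tubulin BTub4 at +0.38 ± 0.24 (adjusted p = 0.346). That TUA10 probe set was dim, at a mean signal of 48.9. The brighter TUA10 probe sets, at mean signals of 2070 and 131, had -0.28 ± 0.26 (adjusted p = 0.555) and +0.23 ± 0.56 (adjusted p = 0.845). The annexins, calcium-dependent membrane-binding proteins, had +0.48 ± 0.33 for AnnGh1 (adjusted p = 0.394) and -0.43 ± 0.27 for Anx1 (adjusted p = 0.358). The auxin list matched only the lipid transfer gene FSLTP2, through its further symbol GH3, so it holds no clear auxin gene. Its 2 probe sets had -0.20 ± 0.15 (adjusted p = 0.442) and -0.19 ± 0.20 (adjusted p = 0.609).

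The vacuole, the compartment Rab7 serves, was represented on the fixed list by cva69.24, a catalytic subunit of the vacuolar proton ATPase, at +0.04 ± 0.19 (SE, limma adjusted p = 0.929). A further vacuole and endosome list was drawn up after the values had been seen. Of its 7 tested probe sets limma called 0 as higher and 1 as lower, against 4.22% and 4.61% of all probe sets tested. At an unadjusted p under 0.05 it gave 2 higher and 2 lower, against 25.2% of all in either direction. The called one was VP (LOC107889146), a symbol used for the proton-pumping pyrophosphatase of the vacuolar membrane. VP had 2570, 2900 and 4310 at 42 °C in Sicot 53, against 3710, 4850 and 4770 at 32 °C, and 2110, 3590 and 3410 at 42 °C in Sicala 45, against 5480, 6980 and 4330 at 32 °C. It fell 1.60-fold (log2 change -0.68 ± 0.19, adjusted p = 0.0489), with temperatures apart in Sicala 45 and overlapping in Sicot 53. How many of all probe sets are apart in this way was not counted. VP lost its call in 10 of 12 removals of a single array (largest adjusted p 0.109, with changes of -0.79 to -0.56 over all 12), with the covariate (-0.71, adjusted p = 0.0797) and under median centring (-0.59, adjusted p = 0.0858). Quantile normalization (-0.73, adjusted p = 0.0296) and scaling to the spikes (-1.18, adjusted p = 0.00275) kept it. DET3, another subunit of the vacuolar ATPase, had -0.45 ± 0.17 (adjusted p = 0.112), and the probe sets of its subunit gene VATE +0.31 ± 0.12 (adjusted p = 0.128) and +0.06 ± 0.28 (adjusted p = 0.929). NHX1, a vacuolar sodium and proton exchanger, had +0.84 ± 0.32 (adjusted p = 0.123), and the endosomal sorting gene SKD1 +0.09 ± 0.13 (adjusted p = 0.713) and +0.26 ± 0.15 (adjusted p = 0.33). Values of vacuolar genes therefore lay on both sides of 0. The added beta tubulins BTub1 and BTub3 had -2.15 ± 0.81 (adjusted p = 0.119) and -0.77 ± 0.30 (adjusted p = 0.134). Neither was called, while 2 of 2 were lower at an unadjusted limma p under 0.05 (25.2% of all tested in either direction). The genes named Aux2, Aux3, Aux4 and Aux6 had 0 calls among 6 probe sets by limma, 0 also at an unadjusted p under 0.05 (25.2% of all tested), with a median of -0.05.

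**Figure D4:**
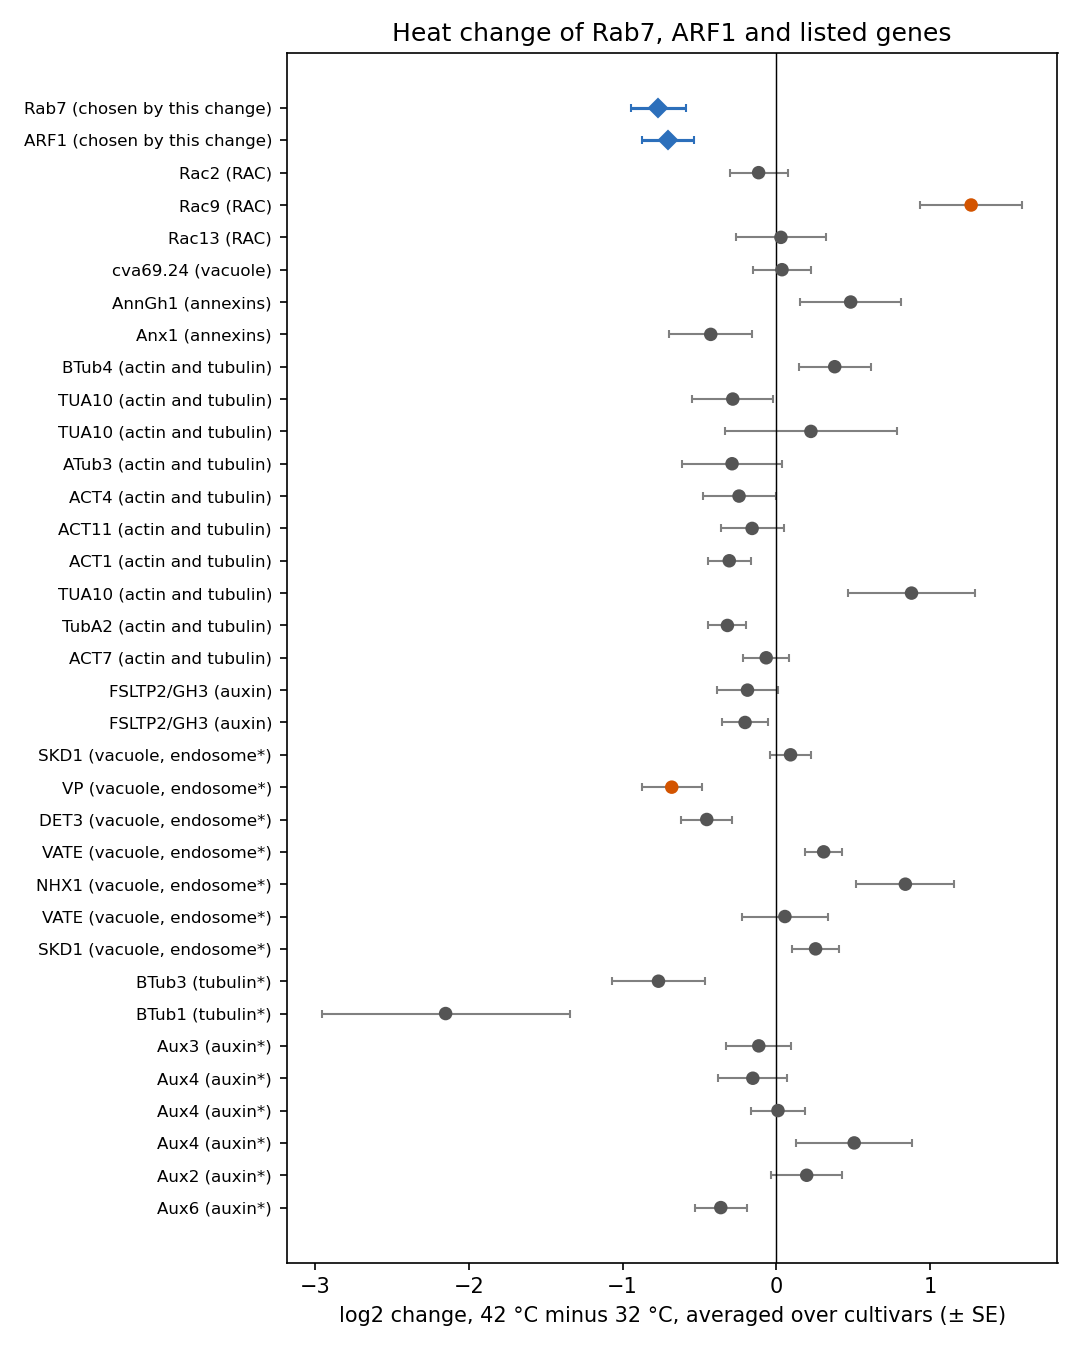
Log2 change with heat (42 °C minus 32 °C, averaged over cultivars, bars ± SE) of Rab7 and ARF1 (blue diamonds) and of every tested probe set of the listed genes, with lists added after the values were seen marked by an asterisk; orange points passed the limma threshold. Rac9 at +1.27 and VP at -0.68 are the called ones.

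By a rule on likeness, the 3 named genes that followed each member most closely over 12 arrays were taken from 260 named probe sets. For Rab7 they were MPK3 (LOC107959059), a mitogen-activated protein kinase, at r = 0.931, PAP1 (LOC107905479) at 0.913 and the class III peroxidase pod1 (LOC107945392) at 0.912. For ARF1 they were GRPL1 (LOC107953490) at 0.933, the sterol methyltransferase SMT2-1 (LOC107959396) at 0.907 and PK1 (LOC107946568) at 0.899. These values are descriptions across arrays that share their temperature groups. With group means removed, r was 0.80, 0.821 and 0.765 for the genes like Rab7 and 0.802, 0.795 and 0.716 for those like ARF1. All 6 had negative averaged heat changes, between -1.45 for GRPL1 and -0.82 for PK1. This largely follows from their choice by likeness to genes that were themselves chosen for lower signal at 42 °C. MPK3 was dim, with a mean signal of 16.4 at 42 °C and 56.4 at 32 °C. The members themselves followed each other at r = 0.458. Among the 260 named probe sets, ARF1 had rank 53 in likeness to Rab7, and Rab7 had rank 80 in likeness to ARF1. The lists of closest genes did not overlap, and with 3 of 260 in each nothing is read from this.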

How the data were processed

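The authors' deposited table holds MAS5 signal intensities for 12 arrays, 1 value per probe set. MAS5 is named in the submitters' processing notes with no version; its other settings were not given in the sources used here. A trimmed mean of 500.3 to 500.4 on every array shows scaling to a common level. Per the labels, RNA was extracted with hot borate and labelled with biotin. No detection calls were used here, and the number of arrays limits the precision.

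The 103 control probe sets were set aside and the dimmest 30% of the remainder left out, which kept 16820 of 24132. On log2(signal + 16), limma 3.58.1 in R 4.3.3 (lmFit, eBayes with trend) fitted 4 group means over 12 arrays, with Benjamini-Hochberg adjustment over all probe sets and a threshold of 0.05. Folds are on this scale and understate changes of dim genes. Fitting was checked on simulated data. Correlations used Python 3.11.15, and figures matplotlib 3.10.9.

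Gene names came from the platform annotation, which gives 1 locus to 697 probe sets, several to 46 and none to 23389, and from RefSeq's table for Gossypium_hirsutum_v2.1. The members and lists were chosen with earlier results of these data known. Per list, up to 4 probe sets of lowest p are named, with every member of the added lists that the text treats, and for each member the 3 named genes of highest correlation. Alternatives changed scaling, pseudocount, filter, trend, array weights, covariate, block and arrays. Same-numbered arrays had deviations correlated at a median r of -0.095 over 18 pairs (-0.479 to 0.456). Others had a median of 0.024 over 36 (-0.603 to 0.435). The medians gave no sign of pairing by replicate number, and the arrays were not paired in the main fit. Whether some replicates shared a batch was not tested.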

Additional observations from a re-analysis of the deposited data

How the results depend on the processing

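The averaged heat changes of Rab7 and ARF1 kept their sign in 24 of 24 alternatives, between -1.26 and -0.59 for Rab7 and between -1.20 and -0.62 for ARF1. The genes were chosen for arrays that part the temperatures, so the removal of arrays could not turn this sign. Changes of filter, trend or block left the estimates as they were. The kept sign is therefore a description and not a test. The limma adjusted p of the averaged change was under 0.05 in 20 of the 24 alternatives for each gene. Its highest value was 0.0715 for Rab7 and 0.066 for ARF1. These values describe the contrast by which the genes were chosen and do not test it. Scaling to the poly-A spikes gave -1.26 for Rab7 and -1.20 for ARF1, with -1.38 and -0.996 in Sicot 53 and -1.14 and -1.40 in Sicala 45, and shifted the median of all probe sets to -0.50. The same scaling turned the averaged cultivar difference to -0.0414 for Rab7 and -0.25 for ARF1 and that at 42 °C to -0.16 for Rab7 and -0.0432 for ARF1, and called 0 listed genes higher and 9 lower, with 5535 of 16820 probe sets called in all, against 1484 in the scaling as deposited. Array weights turned the averaged cultivar difference of ARF1 to -0.0519 and the difference in heat change of Rab7 to +0.14, and called 1 listed gene lower and 2962 probe sets in all. The covariate left 0 listed genes higher. Without the 2 arrays of highest ubq11 ratio, 0 listed genes were higher, 782 probe sets were called and the Rab7 difference in heat change was +0.0196. Removing 1 array at a time gave -0.0436 to 0.118 for the averaged cultivar difference of ARF1, -0.346 to 0.0495 for the Rab7 difference in heat change and 0 to 1 listed genes higher. The cause of these shifts was not tested. With the replicate block, heat changes were -0.77 ± 0.19 for Rab7 and -0.70 ± 0.18 for ARF1 (SE), and 1314 probe sets were called.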
